A study of Mus musculus with 8 samples.

Results

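Neutrophil granule genes were followed as a set of 10 through RNA from whole mouse spine: Mpo, Elane and Prtn3 of the primary granules, Ltf, Ngp and Camp of the secondary granules, Mmp8 and Retnlg of later stages, and S100a8 and S100a9 of the cytosol. They were taken by symbol from the deposited table of 27179 genes, and all 10 were in the table and passed the filter on low counts, as did 18104 genes in all. Spines of embryos at E18.5 gave 8 libraries, 2 from each of 4 groups, namely male wild type (WT), female WT, male knockout (KO) and female KO. The labels name the KO allele Pax1-Enh, and the series title places the deletion in a sex-associated region at Pax1, a transcription factor of the embryonic vertebral column, that is linked to adolescent idiopathic scoliosis. Both genotypes were sampled at the same stage and from the same tissue, and no treatment is named. The strain and the number of embryos behind each library are not given in the labels, so p-values measure only the spread between these samples, which may be technical. The tissue was crushed whole, so vertebrae, discs, marrow, muscle, nerve and blood entered 1 RNA sample.

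Neutrophils are short-lived white blood cells that kill microbes with proteins stored in granules. The granules are filled in sequence as the cell matures. Primary granules, made in promyelocytes, carry myeloperoxidase (Mpo) and the serine proteases neutrophil elastase (Elane) and proteinase 3 (Prtn3). Secondary granules, made in myelocytes, carry lactoferrin (Ltf), neutrophilic granule protein (Ngp) and the cathelicidin precursor (Camp). Later cells make the collagenase Mmp8 and the resistin-like protein Retnlg, and S100a8 and S100a9 form calprotectin, the most abundant protein complex of the neutrophil cytosol. Before birth neutrophils are made in the fetal liver and, as vertebrae ossify, in the new bone marrow. The transcription factors PU.1 and the C/EBP family are known for driving the granule genes.

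The sequence just before each gene's start is shown for the primary and secondary granule members, since the primary ones share a motif and the secondary ones had another order over the libraries. RefSeq promoters of the GRCm38.p6 build (mm10) were found for 10 of 10 members, and the 250 bases before the start were searched on both strands. The motifs were GAGGAAGT, a PU.1 site, TTNNGNAA, a C/EBP half-site pair and the letters of a RUNX site and a TATA box. Capitals mark matches to the PU.1 and C/EBP letters on either strand, and no 2 matches overlapped.
Mpo, chr11:87793534-87793783, + strand: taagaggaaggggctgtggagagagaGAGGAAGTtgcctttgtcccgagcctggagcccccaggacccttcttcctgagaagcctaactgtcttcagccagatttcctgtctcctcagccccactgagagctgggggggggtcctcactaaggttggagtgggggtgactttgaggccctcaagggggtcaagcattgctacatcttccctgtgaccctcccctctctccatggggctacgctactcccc
Elane, chr10:79886062-79886311, + strand: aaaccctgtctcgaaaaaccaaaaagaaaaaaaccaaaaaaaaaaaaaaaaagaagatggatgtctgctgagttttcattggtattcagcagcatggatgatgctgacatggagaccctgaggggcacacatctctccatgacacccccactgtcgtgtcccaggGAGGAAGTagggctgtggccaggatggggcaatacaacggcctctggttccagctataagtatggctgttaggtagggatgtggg
Prtn3, chr10:79879417-79879666, + strand: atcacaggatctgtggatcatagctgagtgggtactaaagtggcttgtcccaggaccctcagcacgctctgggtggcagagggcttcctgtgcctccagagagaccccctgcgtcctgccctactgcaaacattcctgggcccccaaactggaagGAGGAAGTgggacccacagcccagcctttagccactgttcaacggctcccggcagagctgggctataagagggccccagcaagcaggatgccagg
Ltf, chr9:111019042-111019291, + strand: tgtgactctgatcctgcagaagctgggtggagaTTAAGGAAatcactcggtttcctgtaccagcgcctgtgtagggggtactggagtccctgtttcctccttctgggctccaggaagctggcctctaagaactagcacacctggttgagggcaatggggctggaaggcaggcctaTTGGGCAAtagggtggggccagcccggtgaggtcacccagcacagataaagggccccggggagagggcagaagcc
Ngp, chr9:110419558-110419807, + strand: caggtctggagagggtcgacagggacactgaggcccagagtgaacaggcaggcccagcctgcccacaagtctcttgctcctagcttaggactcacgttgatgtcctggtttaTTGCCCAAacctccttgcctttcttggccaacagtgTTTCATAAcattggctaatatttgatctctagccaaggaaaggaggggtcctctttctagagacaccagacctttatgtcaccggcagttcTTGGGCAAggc
Camp, chr9:109849457-109849706, - strand: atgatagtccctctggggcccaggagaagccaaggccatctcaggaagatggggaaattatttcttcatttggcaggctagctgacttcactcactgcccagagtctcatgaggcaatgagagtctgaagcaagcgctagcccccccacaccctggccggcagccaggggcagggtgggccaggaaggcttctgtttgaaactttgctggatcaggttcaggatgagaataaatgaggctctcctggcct

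All 3 primary granule promoters held the PU.1 letters. The match began 224 bases before the start in Mpo, 85 bases in Elane and 95 bases in Prtn3. Over the set, 5 of 10 promoters held it (the others were Mmp8 and S100a8), against 2.44% of the 32851 promoters searched. The bases after the RefSeq starts of Mmp8 and Retnlg were not found near the start of a GENCODE M21 transcript of the gene, and over the other 8 promoters the count was 4. The C/EBP letters were in 6 of 10 (Ltf, Ngp, Mmp8, Retnlg, S100a8 and S100a9), or 4 of 8 without Mmp8 and Retnlg, against 36.8% of all promoters. Ltf held 2 such matches, at 217 and 75 bases before its start, and Ngp held 3, at 138, 102 and 11 bases. Camp held none of the letters searched. The RUNX letters, TGTGGT, were found in S100a9 alone of the 10, against 14.0% of all promoters. A TATA box, searched as TATAAA, was found in S100a8 alone of the 10, against 12.4% of all promoters. These matches are letters in a window and were not tested for binding.

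Library totals ran from 35181518 to 67575728 counts, and all 4 KO libraries (59722279 to 67575728) were deeper than all 4 WT libraries (35181518 to 48021848), so depth and genotype cannot be told apart by design. Levels are given as CPM, the counts of a gene scaled to the size of its library after edgeR's TMM normalisation, on which 3 counts equal 0.0392 to 0.0831 CPM. RPKM is this CPM divided by the length of a gene's exons in kilobases. Summed cartilage, bone and skeletal muscle markers were high in every library, at 6168 to 28532, 2669 to 9408 and 12256 to 34865 CPM (7 of 7 genes tested in each list). These are markers of the labelled tissue. Single genes among them were far lower, such as Bglap of bone at 2.16 to 4.88 CPM. Several libraries stood apart in other ways. The share of counts from the mitochondrial genome was 18.3% and 20.9% in WT males, 5.55% and 7.27% in WT females, 4.56% and 15.6% in KO males, and 13.6% and 4.66% in KO females (replicates 1 and 2). Summed hepatocyte markers were 1047, 868 and 905 CPM in male WT 1, male WT 2 and male KO 1 and 32.0 to 128 CPM in the other 5. Pancreatic markers summed to 1803 CPM in female WT 1 and to at most 5.99 CPM elsewhere. Adipocyte markers summed to 829 to 5474 CPM in the WT libraries and 245 to 475 CPM in the KO libraries, with no overlap. Within WT they were highest in male WT 1 (5306 CPM) and female WT 2 (5474 CPM). The part of this difference in the KO effects was not tested. Xist and the Y-linked genes matched the labelled sex of the libraries. Female KO 1, with Ddx3y at 1.73 CPM, was the highest female library for Ddx3y, Eif2s3y and Uty, though below every male library. It was the lowest library but 1 for the Y-linked Kdm5d. Summed together, Xist and the Y-linked genes were at 132 CPM in male KO 1, against 275, 397 and 371 CPM in male WT 1, male WT 2 and male KO 2.

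Per exon length, calprotectin stood far above the granule genes. S100a9 had a mean of 575 RPKM over the 8 libraries and S100a8 of 348 RPKM. Retnlg (37.3 RPKM), Ngp (21.5 RPKM), Mmp8 (9.37 RPKM), Camp (7.26 RPKM) and Ltf (2.66 RPKM) followed. The primary granule genes were the lowest, with Prtn3 at 1.04 RPKM, Mpo at 0.854 RPKM and Elane at 0.680 RPKM. S100a8 and S100a9 together made up 68.5% (female KO 2) to 94.4% (male WT 2) of the CPM of the 10 genes. All 10 genes were highest in a male library, 6 of them in a male KO library, and all 10 were lowest in a female library. The share of all genes with such extremes was not computed, and the 10 genes moved together and are not separate observations. In a bulk sample such as this, fewer neutrophils and less RNA per neutrophil cannot be told apart.

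**Figure D1:**
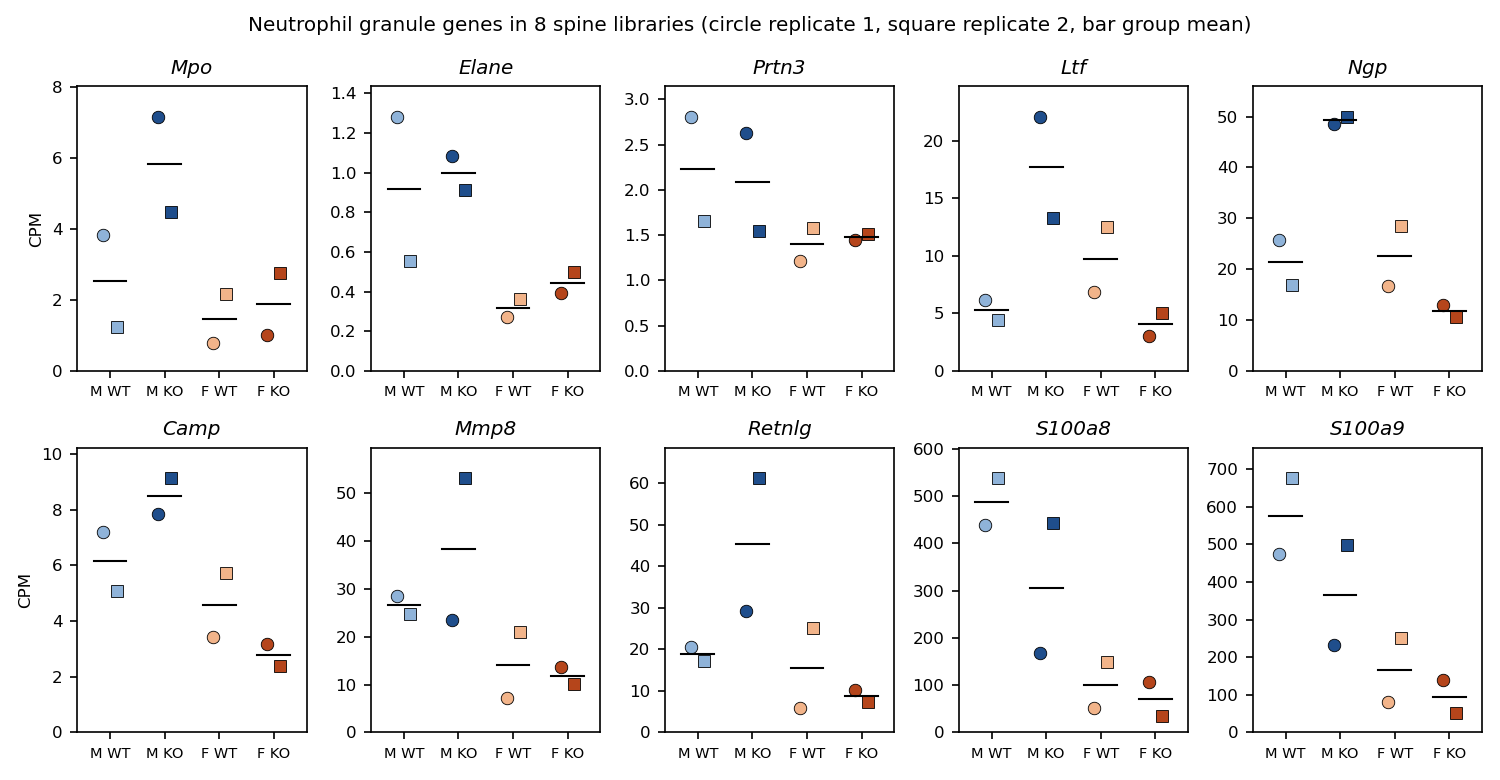
Level of each of the 10 genes in CPM (linear axes from 0, a scale per gene) in the 4 groups; circles are replicate 1, squares replicate 2 and horizontal bars the mean of the 2 libraries. Ngp sits at 48.5 and 50.01 CPM in KO males, above the other 6 libraries (10.6 to 28.5 CPM), while S100a8 and S100a9 have their highest group mean in WT males.

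Mpo (Entrez gene 17523, chr11:87793784-87804412), the peroxidase that makes hypochlorous acid, was measured at 3.82 and 1.22 CPM in WT males and 7.16 and 4.48 CPM in KO males. In females it was at 0.787 and 2.16 CPM in WT and 1.00 and 2.75 CPM in KO. Both male KO libraries were above both male WT libraries, and the female genotypes overlapped. Prtn3 (Entrez gene 19152, chr10:79879667-79883174) and Elane (Entrez gene 50701, chr10:79886312-79888216) lie 3137 bases apart on the same strand with no gene between them. Elane was at 1.28 and 0.554 CPM in WT males, 1.08 and 0.910 CPM in KO males, 0.270 and 0.360 CPM in WT females, and 0.393 and 0.498 CPM in KO females. All 4 male libraries were above all 4 female libraries, by the narrowest gap between male WT 2 (0.554 CPM) and female KO 2 (0.498 CPM). The lowest library rested on 12 counts. Prtn3 varied least of the 10 genes, 2.31-fold from lowest to highest. It was at 2.81 and 1.66 CPM in WT males, 2.63 and 1.54 CPM in KO males, 1.21 and 1.58 CPM in WT females, and 1.45 and 1.51 CPM in KO females, so the genotypes overlapped in both sexes.

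The secondary granule genes lie on 1 chromosome, Camp (Entrez gene 12796, chr9:109847377-109849456, minus strand) 570.4 kb from Ngp (Entrez gene 18054, chr9:110419808-110423012) and Ngp 596.3 kb from Ltf (Entrez gene 17002, chr9:111019292-111042766), with 18 and 25 annotated genes between them. Ltf, the iron-binding protein of the granule, was at 6.14 and 4.43 CPM in WT males and 22.1 and 13.3 CPM in KO males. In females it was at 6.91 and 12.5 CPM in WT and 3.05 and 5.04 CPM in KO. KO libraries thus lay above WT libraries in males and below them in females. Ngp, a cystatin-like granule protein, showed the same order, at 25.7 and 17.0 CPM in WT males, 48.5 and 50.01 CPM in KO males, 16.6 and 28.5 CPM in WT females, and 12.9 and 10.6 CPM in KO females. By group, Ngp had 49.3 ± 1.05 CPM in KO males, 22.6 ± 8.42 CPM in WT females, 21.3 ± 6.18 CPM in WT males and 11.8 ± 1.65 CPM in KO females (SD, n = 2 each). The 2 WT groups in the middle of that order overlapped. Camp, the precursor of the antimicrobial peptide CRAMP, was at 7.20 and 5.10 CPM in WT males, 7.85 and 9.14 CPM in KO males, 3.44 and 5.74 CPM in WT females, and 3.18 and 2.38 CPM in KO females. It too lay above WT in KO males and below WT in KO females, by a narrower gap. These 3 of 10 genes had both KO libraries above both WT libraries in males and below them in females, an order found in 6.09% of all tested genes.

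Mmp8 (Entrez gene 17394, chr9:7558429-7568486), the neutrophil collagenase, was at 28.5 and 24.8 CPM in WT males, 23.5 and 53.2 CPM in KO males, 7.11 and 20.9 CPM in WT females, and 13.6 and 10.2 CPM in KO females. Genotypes overlapped in both sexes, and all 4 male libraries were above all 4 female libraries. Retnlg (Entrez gene 245195, chr16:48872608-48874498), a secreted protein of mature neutrophils, was at 20.7 and 17.1 CPM in WT males and 29.3 and 61.3 CPM in KO males. Its female values were 5.98 and 25.1 CPM in WT and 10.2 and 7.26 CPM in KO. Male KO was above male WT, and female KO lay between the 2 female WT libraries.

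S100a8 (Entrez gene 20201, chr3:90669071-90670034) and S100a9 (Entrez gene 20202, chr3:90692630-90695721, minus strand) lie 22595 bases apart with no gene between them. S100a8 was at 439 and 538 CPM in WT males and 168 and 444 CPM in KO males. In females it was at 52.3 and 149 CPM in WT and 107 and 35.7 CPM in KO. Every male library was above every female library, by the narrowest gap between male KO 1 and female WT 2. S100a9 was at 473 and 677 CPM in WT males, 232 and 498 CPM in KO males, 80.2 and 251 CPM in WT females, and 139 and 51.5 CPM in KO females. Its sexes overlapped, since female WT 2 was above male KO 1. The pair moved together, with 1.08 to 1.68 CPM of S100a9 for each CPM of S100a8 over the 8 libraries. In males the lowest of the 4 libraries was KO replicate 1 for both genes, and in females it was KO replicate 2.

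The first comparison asked whether the deletion altered these genes in males. All 3 secondary granule genes had higher means in KO. The fold change of Ltf was 3.35 (95% interval 1.76 to 6.39) and of Ngp 2.31 (1.40 to 3.8). Log2 fold changes were 1.75 (SE 0.41) for Ltf, with an adjusted p of 0.232 by edgeR's quasi-likelihood test, and 1.21 (SE 0.32) for Ngp, with an adjusted p of 0.239. Neither passed the threshold of 0.05. Retnlg (1.26, SE 0.60), Mpo (1.21, SE 0.69), Mmp8 (0.52, SE 0.51), Camp (0.47, SE 0.33) and Elane (0.12, SE 0.48) had positive log2 fold changes and Prtn3 (-0.10, SE 0.40), S100a8 (-0.68, SE 0.66) and S100a9 (-0.66, SE 0.64) negative ones. Their adjusted p-values by edgeR ran from 0.358 to 0.919. With 1 library left out these values moved widely, for Mpo from 0.61 (without male WT 2) to 2.25 (without male WT 1), for Retnlg from 0.63 (without male KO 2) to 1.70 (without male KO 1) and for S100a8 from -1.54 (without male KO 2) to -0.14 (without male KO 1). None of the 10 was called by edgeR at an adjusted p under 0.05, nor was any other gene (0% of 18104), and limma voom called none of the 10. At an unadjusted p under 0.05 edgeR had 2 of 10, both higher, where 7.53% of all genes were higher by that rule. DESeq2, which called 2.66% of all genes, called the same 2, Ltf (adjusted p 0.00416) and Ngp (adjusted p 0.0245). In 5 of 10 genes (Mpo, Ltf, Ngp, Camp and Retnlg) both KO libraries lay above both WT libraries, against 19.7% of all genes, and 7 of 10 log2 fold changes were positive, against 45.4%. The median was 0.49 over the 10 genes and -0.06 over all tested genes. Both male KO libraries were lower in mitochondrial share (4.56% and 15.6%) than both male WT libraries (18.3% and 20.9%). With that share as a covariate, an alternative added after seeing the data, Ltf had a log2 fold change of 1.06 and Ngp of 1.33, while S100a8 and S100a9 turned to 0.66 and 0.59.

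In females the log2 fold changes of the 3 secondary granule genes were negative, and none passed the test. The fold change of Ltf was 0.418 (95% interval 0.221 to 0.791) and of Ngp 0.522 (0.317 to 0.857). On the log2 scale Ltf differed by -1.26 (SE 0.40), Ngp by -0.94 (SE 0.31) and Camp by -0.72 (SE 0.34), with adjusted p-values by edgeR of 0.532, 0.532 and 0.548. Retnlg (-0.83, SE 0.60), S100a9 (-0.80, SE 0.64), S100a8 (-0.50, SE 0.66) and Mmp8 (-0.24, SE 0.51) were negative as well, and the 3 primary granule genes were positive, at 0.51 (SE 0.53) for Elane, 0.36 (SE 0.70) for Mpo and 0.08 (SE 0.41) for Prtn3. No gene passed at an adjusted p under 0.05 by edgeR (0% of 18104), and neither DESeq2 (0.795% of all genes) nor limma voom called any of the 10. At an unadjusted p under 0.05 edgeR had 2 of 10, Ltf and Ngp, both lower, where 4.74% of all genes were lower by that rule. Both KO libraries lay below both WT libraries in 3 of 10 (Ltf, Ngp and Camp; 26.2% of all genes) and above them in 1 of 10 (Elane; 25.9% of all genes). The median was -0.61 over the 10 genes and 0.03 over all tested genes, and 7 of 10 were negative, against 47.4%. Female WT 2 was above female WT 1 in all 10 genes, an order whose share over all genes was not computed. Without female WT 2 the log2 differences were -0.78 for Ltf and -0.50 for Ngp, and those of Mmp8, Retnlg, S100a8 and S100a9 turned to 0.73, 0.53, 0.45 and 0.25.

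The difference between the sexes' KO effects was then tested itself, as the female effect minus the male effect. Ltf had the largest, -3.01 (SE 0.57, 95% interval -4.31 to -1.70), followed by Ngp at -2.15 (SE 0.45, -3.16 to -1.13), Retnlg at -2.09 (SE 0.84, -4.01 to -0.18) and Camp at -1.19 (SE 0.47, -2.27 to -0.11), all log2. Adjusted p-values by edgeR were 0.243, 0.243, 0.283 and 0.281, and 0% of all genes passed. Those 4 of 10 genes had an unadjusted p under 0.05, all lower, where 7.13% of all genes were lower by that rule. DESeq2 called Ltf (adjusted p 9.75e-04) and Ngp (adjusted p 0.00507), where it called 2% of all genes, and limma voom called none of the 10. Mpo (-0.85, SE 0.98) and Mmp8 (-0.76, SE 0.72) had wide errors. Elane (0.38, SE 0.71), Prtn3 (0.18, SE 0.58), S100a8 (0.18, SE 0.93) and S100a9 (-0.14, SE 0.90) had differences under their SE, with an interval of -1.95 to 2.31 for S100a8 and of -2.20 to 1.92 for S100a9. Without female WT 2 the difference of Retnlg was -0.75. The median over the 10 genes was -0.80, against 0.03 over all tested genes, and 7 of 10 were negative, against 48.3%. With the mitochondrial share as a covariate, Ltf had -2.20 and Ngp -2.31, and S100a8 moved from 0.18 to -1.73.

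Over both sexes together the 95% interval of the KO effect included 0 in all 10 genes. Log2 fold changes ran from -0.73 (SE 0.44) for S100a9 to 0.79 (SE 0.50) for Mpo, with adjusted p-values by edgeR of 0.813 to 0.999. No gene of the table passed by edgeR (0% of 18104), none of the 10 had an unadjusted p under 0.05 (6.83% of all genes did), and DESeq2 (0.779% of all genes) and limma voom called none of the 10. Ltf had 0.25 (SE 0.63) and Ngp 0.14 (SE 0.44), with opposite signs in the 2 sexes. Genotypes overlapped in all 10 genes. The median was 0.14, against -0.0077 over all tested genes.

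**Figure D2:**
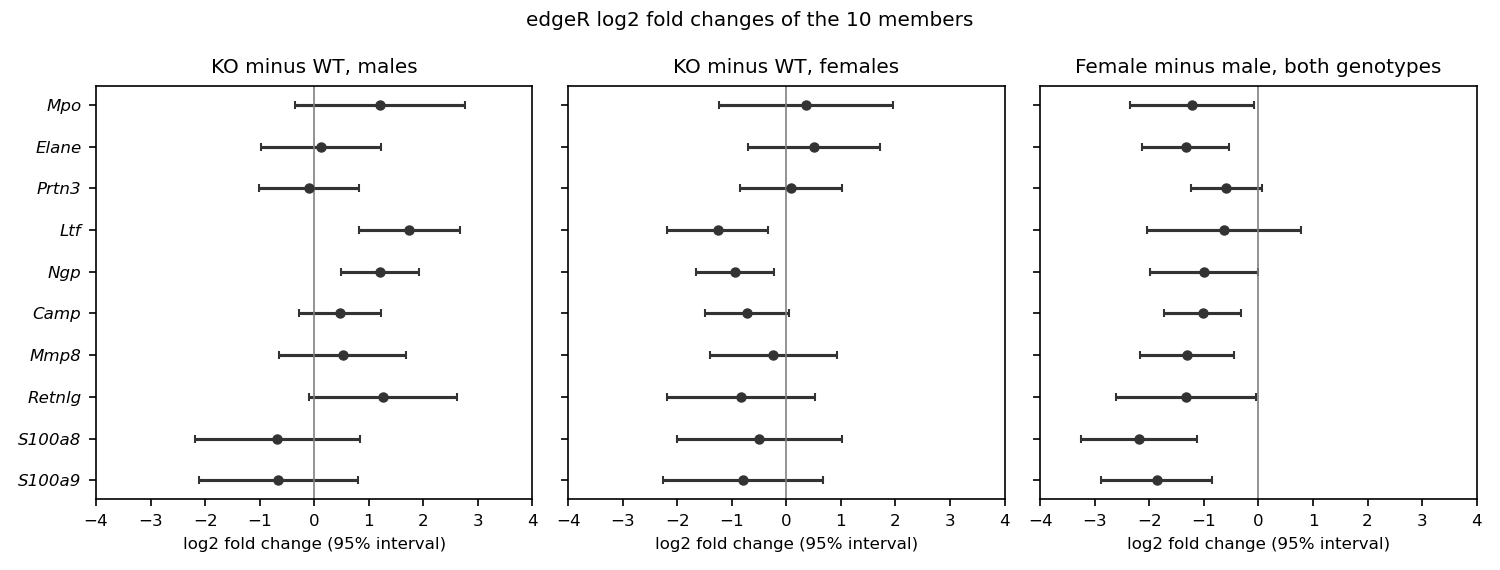
Log2 fold change of each gene by edgeR (points) with its unadjusted 95% interval (bars), for KO minus WT in males, KO minus WT in females, and female minus male over both genotypes; the vertical line is 0. Ltf and Ngp have intervals above 0 in males and below 0 in females, and all 10 points are below 0 in the sex comparison.

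The sex comparison had 1 direction for all 10 genes. Over both genotypes all 10 were lower in females, against 50.5% of all tested genes, with a median log2 difference of -1.26 against -0.0044. S100a8 differed by -2.19 (SE 0.47), a fold of 0.220 (95% interval 0.105 to 0.460), and S100a9 by -1.87 (SE 0.45), a fold of 0.274 (0.136 to 0.556). Elane (-1.34, SE 0.36), Retnlg (-1.33, SE 0.57), Mmp8 (-1.31, SE 0.38), Mpo (-1.22, SE 0.51), Camp (-1.02, SE 0.31), Ngp (-0.99, SE 0.44), Ltf (-0.64, SE 0.63) and Prtn3 (-0.59, SE 0.29) followed. Adjusted p-values by edgeR ran from 0.347 (S100a8) to 0.678 (Ltf), so none of the 10 was called, where 0.0166% of all genes were. At an unadjusted p under 0.05, 8 of 10 were lower (all but Prtn3 and Ltf), where 5.29% of all genes were lower by that rule. DESeq2 called S100a8 (adjusted p 4.07e-04) and S100a9 (adjusted p 0.00331), where it called 1.3% of all genes, and limma voom called none of the 10. All 4 female libraries lay below all 4 male libraries in 3 of 10 (Elane, Mmp8 and S100a8), against 1.88% of all genes. Hepatocyte markers (7 of 7 tested) summed to 83.4 to 1047 CPM in males and 32.0 to 128 CPM in females, and none was at 0. All 7 were lower in females (median -2.62), where edgeR called 0 and DESeq2 4 of them. The mitochondrial share was 4.56% to 20.9% in males and 4.66% to 13.6% in females. The part of either in the sex difference was not tested beyond a fit with the mitochondrial share as a covariate, in which all 10 stayed negative, from -0.72 (Prtn3) to -1.90 (Mpo), and S100a8 had -1.52.

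Every pair of the 10 genes had a positive Pearson r over the 8 libraries, from 0.172 for Ltf and S100a8 to 0.993 for S100a8 and S100a9 (45 pairs, given as a description of libraries that share group and depth). On log2 CPM centred on the mean of the 8 libraries, the primary granule genes averaged 1.02 in male KO 1 and -1.0 in female WT 1, the extremes of their range. Ltf, Ngp, Camp, Mmp8 and Retnlg averaged 1.23 in male KO 2, 0.87 in male KO 1 and -0.98 in female KO 2. Calprotectin averaged 1.67 in male WT 2, 1.31 in male KO 2, 1.26 in male WT 1 and -2.14 in female KO 2. Male KO 1 had the highest primary granule value and only 0.06 for calprotectin, and male WT 2 had the highest calprotectin value beside -0.34 and -0.16 for the other classes.

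**Figure D3:**
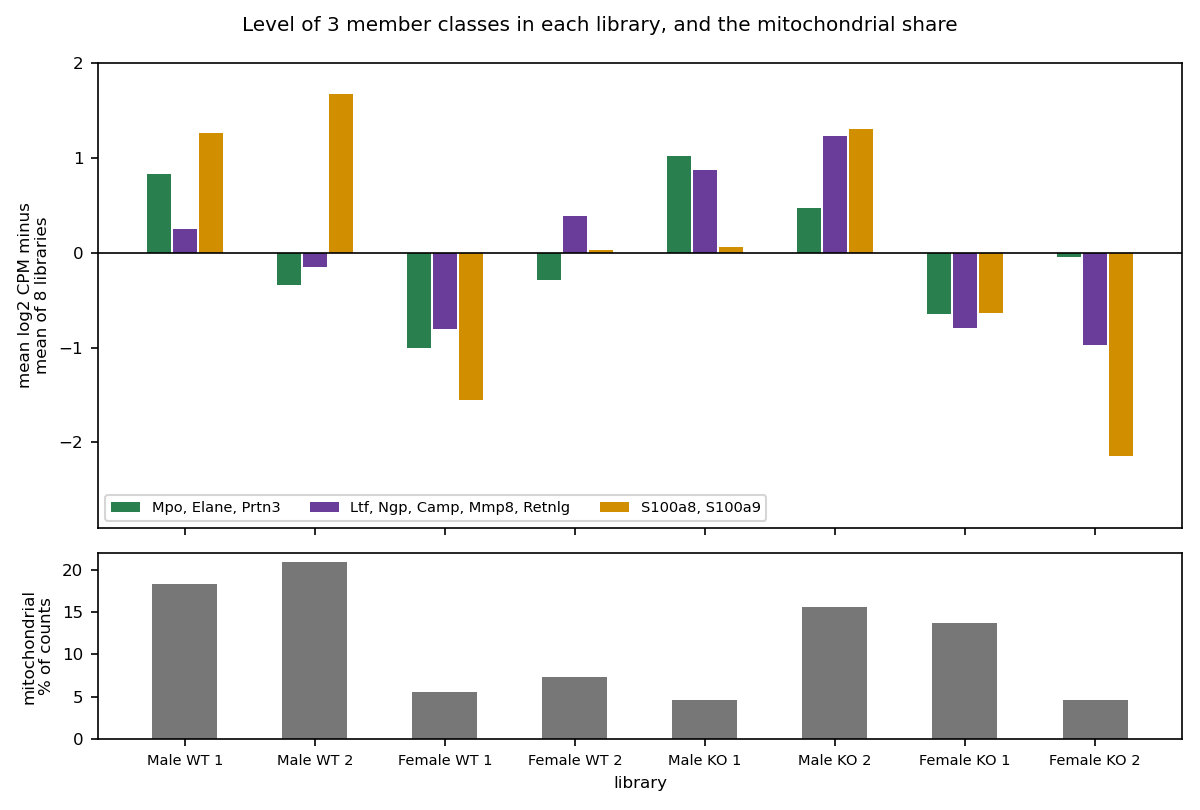
Upper axis, mean log2 CPM of 3 classes of the 10 genes in each library minus the mean of the 8 libraries; lower axis, mitochondrial share of the library's counts in percent. Calprotectin bars are highest in male WT 2 (1.67), male KO 2 (1.31) and male WT 1 (1.26), the 3 libraries with the highest mitochondrial share (15.6% to 20.9%).

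The balance between calprotectin and the secondary granule ranged widely. The summed CPM of S100a8 and S100a9 was 71.5 times that of Ngp in male WT 2 and 35.5 times in male WT 1, against 8.24 times in male KO 1 and 18.8 times in male KO 2. In females it was 7.97 and 14.0 times in WT and 19.05 and 8.22 times in KO. Both male WT libraries were above both male KO libraries, and the female genotypes overlapped. The 4 libraries highest in this ratio were also the 4 highest in mitochondrial share (13.6% to 20.9%, against 4.56% to 7.27% in the others). The part of that share in the ratio was not tested.

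**Figure D4:**
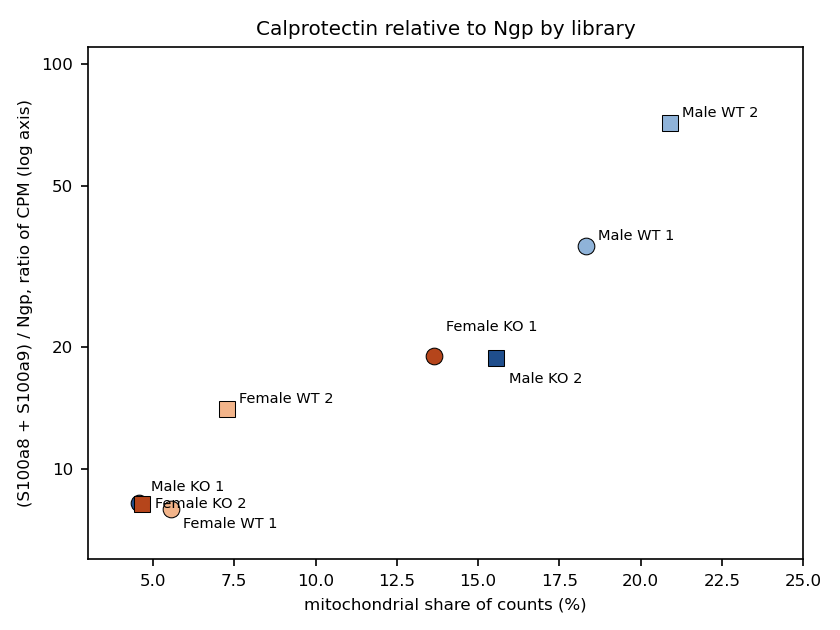
Summed CPM of S100a8 and S100a9 divided by the CPM of Ngp (log axis) against the mitochondrial share of counts in percent, 1 point per library, circles replicate 1 and squares replicate 2. Male WT 1 and 2 lie at 35.5 and 71.5, and the 4 libraries under 10% mitochondrial counts lie between 7.97 and 14.0.

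Other neutrophil genes were read in 5 lists of 40 genes, 35 of which were tested. Bpi, Csf3, Cxcl1, Cxcl2 and Cxcl5 had too few counts. In males 28 of the 35 had a positive KO effect (median 0.65; 45.4% of all genes were positive), and none was called by edgeR. An unadjusted p under 0.05 was found for 8, all higher (7.53% of all genes), and DESeq2 called 3 (2.66% of all genes). In females 25 were negative (median -0.41; 47.4% of all genes), and none was called by edgeR. There 6 had an unadjusted p under 0.05, 5 of them lower (4.74% of all genes), and DESeq2 called 2 (0.795% of all genes). Of these, 4 of the 6 and the 2 of DESeq2 were among the lineage regulators described below. For the female effect minus the male effect 31 of 35 were negative (median -1.19; 48.3% of all genes). None was called by edgeR, 13 had an unadjusted p under 0.05, all lower (7.13% of all genes), and DESeq2 called 2 (2% of all genes). For sex 26 of 35 were lower in females (median -0.57; 50.5% of all genes). None was called by edgeR, 11 had an unadjusted p under 0.05, all lower (5.29% of all genes), and DESeq2 called 5 (1.3% of all genes). The lists described next are read against the same shares.

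Of the other secondary granule genes all 8 were positive in males (median 0.96) and all 8 negative in females (median -0.71). Both KO libraries lay above both WT libraries in males in 7 of 8 (19.7% of all genes). They lay below them in females in 1 of 8 (26.2% of all genes). None was called by edgeR or DESeq2 in either sex, and edgeR had 3 with an unadjusted p under 0.05 in males and 1 in females. For the female effect minus the male effect 5 of 8 had an unadjusted p under 0.05, all lower. Cd177, a surface protein of secondary granules, was at 2.12 and 0.969 CPM in WT males, 6.48 and 3.25 CPM in KO males, 1.48 and 4.05 CPM in WT females, and 1.04 and 1.57 CPM in KO females. Its female effect minus male effect was -2.74 (SE 0.84, adjusted p 0.250 by edgeR, 0.0368 by DESeq2). Itgb2l, an integrin subunit of neutrophils, had -2.18 (SE 0.74, adjusted p 0.263 by edgeR), Chil3, a chitinase-like protein, -1.17 (SE 1.05) and Pglyrp1, a peptidoglycan-binding protein, -0.63 (SE 0.53).

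Of the 5 other tested genes listed with the primary granules, 4 were positive in males and 5 in females (medians 0.45 and 0.38). All 5 were lower in females than in males (median -0.87). Not all of them encode proteins of the granule. EdgeR called none in these 3 comparisons, with 0, 0 and 4 at an unadjusted p under 0.05, and DESeq2 called 0, 0 and 1. Ctsg, the protease cathepsin G, had a sex difference of -1.55 (SE 0.42, adjusted p 0.381 by edgeR, 0.0394 by DESeq2), Ms4a3, a membrane protein of granulocyte precursors, of -1.32 (SE 0.40), Srgn, the granule proteoglycan serglycin, of -0.87 (SE 0.33) and Serpinb1a, an elastase inhibitor, of -0.66 (SE 0.37). Mean levels of Srgn and Serpinb1a were 20.6 and 19.5 CPM over the 8 libraries, against 2.92 CPM for the primary granule member Mpo. The part of other cells in these genes was not tested. Among 10 tertiary granule and mature neutrophil genes, 7 were positive in males and 9 negative in females. Stfa1 and Stfa2l1, neutrophil stefins whose near-identical copies make their counts uncertain, had sex differences of -2.25 (SE 0.50) and -1.84 (SE 0.45), called by DESeq2 (adjusted p 5.70e-04 and 0.00637) and not by edgeR (0.347 and 0.366). Mmp9, gelatinase B, was at 196 to 388 CPM in WT and 396 to 893 CPM in KO and is also made by osteoclasts, whose 7 markers (Mmp9 among them) summed to 796 to 1228 CPM in WT and 1293 to 2037 CPM in KO. Its KO effect over both sexes was 0.80 (SE 0.35, adjusted p 0.729 by edgeR), and the part of osteoclasts in it was not tested. Mmp25, a membrane-bound protease of neutrophils, had a KO effect of 1.66 (SE 0.51, adjusted p 0.261) in males and -0.12 (SE 0.49, adjusted p 0.933) in females by edgeR.

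Among 8 regulators of the lineage none was called by edgeR in any comparison. At an unadjusted p under 0.05 edgeR had 2 in males, 4 in females and 2 over both sexes, and DESeq2 called 1, 2 and 2. Over both sexes 6.83% of all genes had such a p by edgeR, and DESeq2 called 0.779%. Runx1, a transcription factor of blood formation that cartilage and bone also express, was at 12.2 to 13.7 CPM in the 4 WT libraries and 18.1 to 26.7 CPM in the 4 KO libraries, with no overlap (1.68% of all genes had all KO above all WT). Its KO effect over both sexes was 0.71 (SE 0.16, adjusted p 0.510 by edgeR, 0.0190 by DESeq2). Cebpa, which starts granulocyte differentiation and also acts in fat and liver, was at 16.4 to 191 CPM in WT and 11.3 to 21.4 CPM in KO, with an effect of -2.30 (SE 0.63, adjusted p 0.601 by edgeR, 0.00731 by DESeq2). Its highest library, female WT 2, was also the highest in adipocyte markers (5474 CPM). Those markers summed to 829 to 5474 CPM in WT and 245 to 475 CPM in KO, and their part was not tested. Cebpb, a C/EBP factor of emergency granulopoiesis, had effects of 0.64 (SE 0.40) for the male and -1.58 (SE 0.40) for the female libraries. Cebpb too was highest in female WT 2, at 36.7 CPM, and the part of adipocytes in its effects was not tested. Myb, a factor of progenitors, had effects of 0.41 (SE 0.31) for the male and 0.32 (SE 0.31) for the female libraries. Of 4 tested signals of neutrophil growth and traffic none was called by edgeR or DESeq2 in any comparison, and 1 (Cxcr2, lower in females) had an unadjusted p under 0.05. Cxcl12, which holds neutrophils in the marrow, differed by 0.23 (SE 0.16) over both sexes, its receptor Cxcr4 by -0.11 (SE 0.16), the G-CSF receptor Csf3r by -0.31 (SE 0.42) and the egress receptor Cxcr2 by 0.21 (SE 0.48).

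Markers of other blood cells, of skin and of other tissues were measured beside the 10 genes. Monocyte and macrophage markers (11 of 11 tested) summed to 429 to 591 CPM in males and 348 to 468 CPM in females, mast cell and basophil markers (6 of 6) to 134 to 256 CPM and 85.9 to 150 CPM, and megakaryocyte markers (5 of 5) to 40.3 to 58.4 CPM and 30.1 to 43.6 CPM. Male KO 2 was the highest and female KO 2 the lowest library in all 3 lists. Erythroid markers (8 of 9 in the table) summed to 457 to 1693 CPM in males and 623 to 1190 CPM in females, and B lymphoid markers (8 of 8) to 26.4 to 43.9 CPM and 31.2 to 39.5 CPM. Eosinophil markers were at 0.900 to 2.95 CPM in all, with Prg3 at 0 in female WT 2. In the sex comparison 9 of 11 monocyte and macrophage markers were lower in females (median -0.29), as were 7 of 8 B lymphoid markers (-0.63). So were 5 of 6 mast cell and basophil (-0.60), 4 of 5 megakaryocyte (-0.33) and 5 of 8 erythroid markers (-0.26), against 50.5% of all genes. EdgeR called none of these, and DESeq2 called at most 1 per list (1.3% of all genes). For the KO effect in males the log2 fold change was positive in 9 of 11 monocyte and macrophage markers (median 0.41), 8 of 8 B lymphoid (0.49), 6 of 6 mast cell and basophil (0.53) and 7 of 7 osteoclast markers (0.81), against 45.4% of all genes. EdgeR called none of these, with 2, 1, 1 and 4 at an unadjusted p under 0.05, and DESeq2 called 3 osteoclast markers. Erythroid markers were positive in 2 of 8 (median -0.23), megakaryocyte markers in 3 of 5 (0.25) and keratinocyte markers in 1 of 7 (-0.85, with 1 lower by DESeq2). In females the log2 fold change of the erythroid markers was positive in 0 of 8 (-0.64), of the megakaryocyte markers in 1 of 5 (-0.24) and of the keratinocyte markers in 1 of 7 (-0.16). There the monocyte and macrophage list had 3 of 11 positive (median -0.10) and the B lymphoid list 5 of 8 (0.19). The mast cell and basophil list had 3 of 6 (-0.07) and the osteoclast list 7 of 7 (0.20). Cartilage markers were positive in 7 of 7 in males and 6 of 7 in females (medians 1.03 and 0.75). Bone markers were positive in 6 of 7 in each sex (0.19 and 0.22). Skeletal muscle had 7 and 5 of 7 (0.51 and 0.77), neuron 0 and 6 of 6 (-0.64 and 0.84) and adipocyte 0 and 0 of 8 (-3.06 and -4.55). EdgeR called none of these. DESeq2 called at most 1 per list and sex, apart from 7 adipocyte markers in females (0.795% of all genes). Keratinocytes also make S100a8 and S100a9, and their 7 markers summed to 15.1 to 41.7 CPM in males and 14.1 to 21.0 CPM in females. The part of these cells in the differences of the 10 genes was not tested.

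Of 14965 other tested genes with a mean of at least 1 CPM, the 5 whose log2 CPM followed the primary granule genes most closely over the 8 libraries were Pou2af1 (Pearson r 0.923), Rsad2 (0.923), Nlrc5 (0.921), Myh4 (0.912) and Nefm (0.910). None is a granule gene, and Nefm is a neurofilament. Among the closest to the other 7 members were Ly6a2 (0.965), Bst1 (0.962), Fpr1 (0.957) and Ly6c2 (0.956). Fpr1 is the formyl peptide receptor of neutrophils, and Ly6c2 is among the monocyte and macrophage markers summed above. These values describe 8 libraries that share group, depth and composition, and they were picked as the highest of many.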

How the data were processed

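Polyadenylated RNA of 8 whole-spine samples was sequenced after TRIzol extraction with a stranded mRNA kit, per the labels' protocols. The authors deposited whole-number read counts per gene, not normalised; FastQC 1.0.0, MultiQC 1.0.0, HISAT2, featureCounts and mm10 are named in the submitters' processing notes. The annotation, the strand setting and the treatment of multi-mapped reads were not given in the sources used here. Entrez IDs took symbols from RefSeq (25275) or GENCODE M21 (18), and 1886 genes stayed unnamed (0.365% to 1.63% of counts).

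Genes were filtered with filterByExpr (minimum count 10), which left 18104, and fitted by edgeR 4.0.16 (R 4.3.3) with TMM and the quasi-likelihood test. A fit of 4 group means (4 residual degrees of freedom) served for the KO effect of each sex and their difference, and an additive fit (5 residual degrees of freedom) the genotype and sex effects. P-values are two-sided and Benjamini-Hochberg adjusted over all tested genes, SE is the log2 fold change over the square root of F, and 95% intervals are unadjusted and come from the fit. DESeq2 1.42.0 and limma voom 3.58.1 were alternatives, with other size factors, no filter, a replicate block, no mitochondrial genes, 1 sex alone and each library left out. Fits were tested on simulated data. The biological coefficient of variation was 27.8%. Within every group the 2 libraries differed by more than sampling noise, at 131 to 645 units of chi-square per degree of freedom, and were kept separate.

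The 10 members and the other lists were chosen with earlier results of these data known. Values are printed for all members, and, for each other neutrophil list, for up to 4 tested genes with the smallest p over both sexes; the genes most alike are the 5 with the highest Pearson r to a centred mean profile (log2 CPM, prior count 2), of which 1 is not reported here. Bpi, Csf3, Cxcl1, Cxcl2, Cxcl5, Xist, Ddx3y, Eif2s3y, Uty, Kdm5d, Prg3 and Bglap are named outside this rule, after their values were seen.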

Additional observations from a re-analysis of the deposited data

How the results depend on the processing

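With each library left out in turn edgeR called 0 of the 10 genes in every comparison. DESeq2 called 2 in males, 2 for the female effect minus the male effect and 2 for sex; no other alternative called any. Of 780 alternative log2 values for members, 718 kept their direction and side of the threshold, 6 passed it (all DESeq2) and 56 changed sign, 43 of these with a library left out. The cause was not tested. Sign changes with the mitochondrial share as a covariate, chosen after seeing the data, were Elane (-0.24), S100a8 (0.66) and S100a9 (0.59) in males, Ltf (-0.25) and Ngp (-0.029) over both sexes, and Mpo (0.22) and S100a8 (-1.73) for the difference between the sexes' effects. Prtn3 over both sexes became 0.0029 with DESeq2-type size factors, 0.0043 with DESeq2, 0.0045 with voom, 0.0030 without the filter and 0.017 without mitochondrial genes.

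Ranges over the left-out libraries, where the sign changed, were as follows. In males they were -0.53 to 0.33 for Prtn3, -0.35 to 0.85 for Elane and -0.18 to 1.00 for Mmp8. In females they were -0.55 to 1.24 for Mpo, -0.11 to 0.27 for Prtn3, -0.83 to 0.73 for Mmp8, -1.54 to 0.53 for Retnlg, -1.50 to 0.45 for S100a8 and -1.69 to 0.25 for S100a9. Over both sexes they were -0.16 to 0.18 for Prtn3, -0.30 to 0.82 for Ltf, -0.25 to 0.51 for Ngp, -0.21 to 0.98 for Retnlg, -0.21 to 0.62 for Mmp8 and -0.35 to 0.17 for Camp. For the difference between the sexes' effects they were -0.34 to 0.86 for Elane, -0.25 to 0.62 for Prtn3, -1.03 to 0.87 for S100a9, -0.82 to 1.10 for S100a8, -1.89 to 0.0073 for Mpo and -1.38 to 0.18 for Mmp8. Ltf kept its sign, at 1.33 to 2.07 in males, at -1.67 to -0.78 in females and at -3.44 to -2.55 for their difference, and Ngp at 0.94 to 1.54, -1.29 to -0.50 and -2.52 to -1.74. Where 1 library of a group was left, it was assumed to vary like the other groups.

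Same-numbered libraries deviated from their group means with correlations of -0.531 to 0.178, so the numbers were not taken to pair them. With the replicate block edgeR called 0 members in each comparison, and S100a9 turned to 0.15 for the difference between the sexes' effects. With the female WT numbers crossed, the block again called 0 members. Over all genes the edgeR counts rose from 0 to 39 in males without the filter, from 0 to 33 in females without female WT 2, and from 3 to 35 for sex without male KO 2. With 2 libraries per group the median SE was 0.315 in each sex on the log2 scale.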

Other observations

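Ratios between members of a granule class were read in each library. Ngp was 3.33 to 6.18 times Camp in CPM, from male WT 2 to male KO 1, and both male KO libraries (6.18 and 5.47) were above both male WT libraries (3.57 and 3.33), while both female KO libraries (4.07 and 4.46) were below both female WT libraries (4.83 and 4.98). Ltf was 0.236 to 0.475 times Ngp, and Mmp8 0.803 to 1.45 times Retnlg, with the female KO libraries (1.34 and 1.40) above the female WT libraries (1.19 and 0.833) and the male KO libraries (0.803 and 0.868) below the male WT libraries (1.38 and 1.45). Mpo was 2.73 and 2.90 times Prtn3 in male KO and 0.648 to 1.82 times in the other 6 libraries. The summed primary granule genes were 0.0842 to 0.264 times the summed secondary granule genes, lowest in female WT 1 and highest in female KO 2. None of these ratios was tested, and with 2 libraries per group they rest on counts as low as 35 for Mpo. Elane, which enters the primary granule sum, had fewer counts still.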
